A study of Mus musculus with 14 samples.

Results

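Fc gamma receptors bind the constant region of IgG and tell a myeloid cell that a target carries antibody. This account follows 6 genes of that system, chosen by symbol among the 33939 genes of the expression table: the activating receptors Fcgr1, Fcgr3 and Fcgr4, the inhibitory receptor Fcgr2b, the shared signalling chain Fcer1g and the kinase Syk. All 6 were found under 1 Ensembl identifier each, and all 6 passed the filter on low values in every comparison. RNA came from CD11b+ cells, a sort by magnetic beads that takes microglia and other myeloid cells together, from the 2 hemispheres of C57BL/6 mice 3 days after traumatic brain injury (TBI). Control mice (Ctrl) were Cx3cr1-CreER+/- and conditional knockout mice (cKO) carried in addition a homozygous floxed allele of the targeted gene, so that both genotypes carried the CreER driven from Cx3cr1, a gene of microglia and other mononuclear phagocytes, and both received tamoxifen. The mice were 8 to 12 weeks old. Libraries were made from the contralateral, non-lesioned hemisphere (CL) and the ipsilateral, injured hemisphere (IL): 4 libraries of each hemisphere in Ctrl and 3 of each in cKO, from 8 mice. In 6 of the mice both hemispheres were sequenced, and the cKO labels give number 788 for a CL library alone and number 784 for an IL library alone, which were counted as separate mice although the labels do not settle that.

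An IgG receptor of the activating kind has little signalling capacity of its own. It pairs with Fcer1g, whose tail carries an activation motif (ITAM) that Src-family kinases phosphorylate, and Syk docks on the phosphorylated motif and passes the signal on to phagocytosis, oxidant production and cytokine release. Fcgr2b carries the opposite, inhibitory motif (ITIM) and recruits phosphatases that dampen the signal, so the balance between activating receptors and Fcgr2b sets how readily a microglial cell or macrophage responds to antibody-coated material.

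Expression was given as CPM (reads of a gene per 1000000 assigned reads). The most frequent value above 0 in each library, taken as 1 read, was 0.0240 to 0.0818 CPM. That corresponds to between 12.2 and 41.6 times 1000000 assigned reads per library. The lowest depth was that of Ctrl IL mouse 3546. Genes of short exonic length were low in some libraries. The median log2 deviation of the 319 genes under 1 kb was -0.86 in Ctrl IL mouse 3546, -0.43 in Ctrl CL mouse 3546, between -0.24 and -0.15 in the cKO CL libraries and between -0.03 and 0.26 in the others. The smallest number of reads behind any value of a member was about 332, for Fcgr4 in Ctrl CL mouse 3546. In sorted bulk RNA, fewer cells of a type and less RNA per cell cannot be told apart.

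Fold changes are from limma on log2(CPM + 1) after TMM scaling, positive where the group named first is higher, and a gene was called at an adjusted p of 0.05 or less (Benjamini-Hochberg over all genes tested) with a fold of 1.2 or more. Of the 6 members, 2 were called in IL against CL in Ctrl, both higher, where 7.52% of all genes tested were called and 4.18% were called higher. In IL against CL in cKO, 4 members were called, all higher, against a background of 23.1% called and 12.3% called higher. These fits do not use the pairing of hemispheres by mouse. With the mouse as a block, 20.5% of genes were called in Ctrl and 14.7% in cKO, so that the order of the backgrounds turned, and 2 members were called in each genotype, Fcgr2b and Fcgr4. In cKO against Ctrl in IL, 1 member was called, higher, where 0.668% of genes were called and 0.372% were called higher. In cKO against Ctrl in CL no member was called and 0.903% of genes were, although 1 member had an unadjusted p under 0.05. The median log2 fold change of the 6 members was 0.07, 0.50, -0.07 and -0.30 in these 4 comparisons, against medians of -0.03, 0.01, 0.01 and -0.02 over all genes tested. The groups did not overlap for 2, 5, 2 and 2 of the 6 members in turn, while 17.7%, 42.4%, 10.3% and 9.99% of all genes tested had groups that did not overlap.

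**Figure D1:**
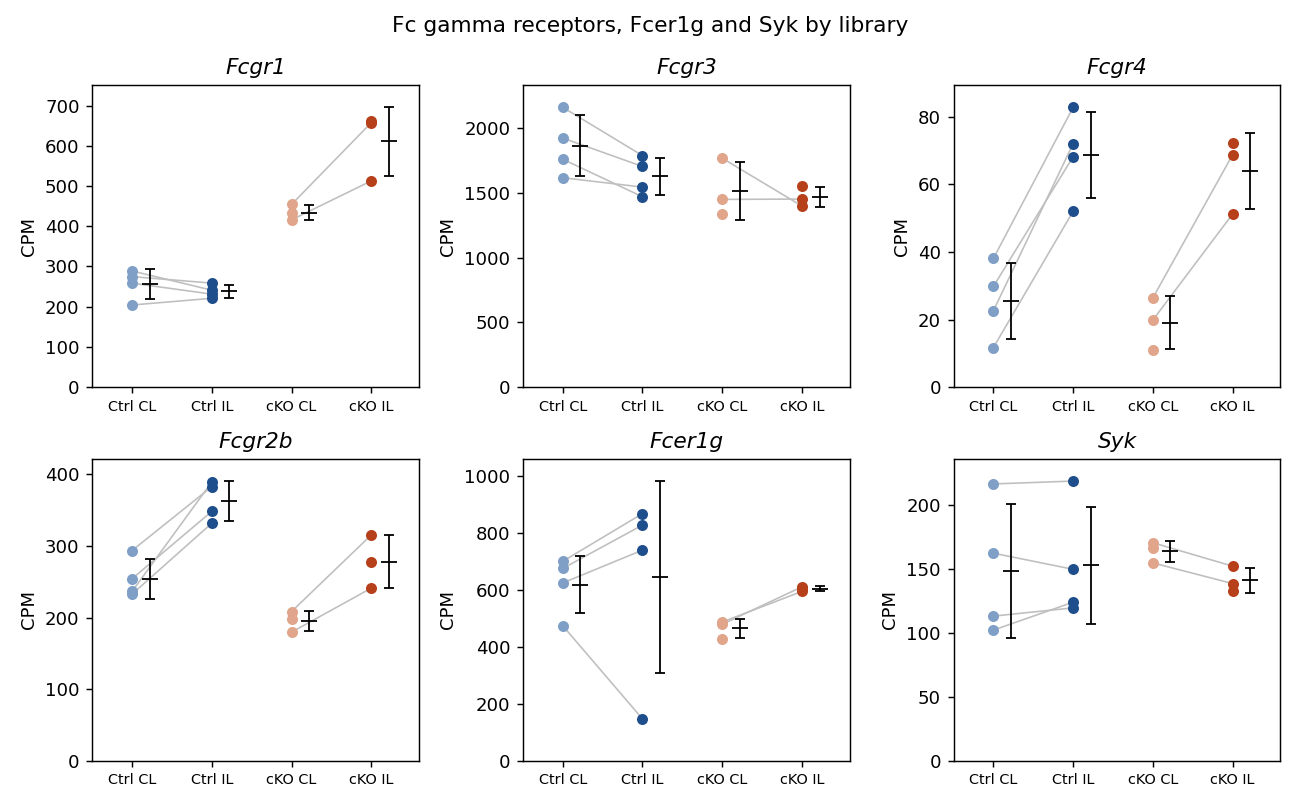
Level of each member in CPM (vertical axes, from 0) in the 4 groups, 1 point per library, with the mean ± SD beside the points and grey lines joining the hemispheres of a mouse. The 6 cKO libraries lay between 416 and 662 CPM for Fcgr1, above all 8 Ctrl libraries, Fcgr4 was higher in IL in both genotypes, and 1 Ctrl IL library was low for Fcer1g.

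Fcgr1 was the member called between the genotypes. It encodes the high-affinity IgG receptor, which can bind IgG that is not in a complex, and lies on chromosome 3 (GRCm38 chr3:96282909-96293969, minus strand). In Ctrl CL its level was 275, 289, 204 and 258 CPM in mice 3541, 3545, 3546 and 3551, and in Ctrl IL it was 259, 241, 221 and 231 CPM in the same mice. In cKO CL it was 432, 454 and 416 CPM in mice 788, 791 and 3592, and in cKO IL it was 662, 657 and 513 CPM in mice 784, 791 and 3592. All 6 cKO libraries were above all 8 Ctrl libraries, and the cKO IL libraries were also above all cKO CL libraries. In IL, Fcgr1 was higher in cKO than in Ctrl by 1.37 ± 0.17 on the log2 scale (SE, 95% interval 0.98 to 1.76 on that scale, adjusted p = 0.0109, called), a 2.58-fold difference. In CL the difference was 0.80 ± 0.17 on the log2 scale (unadjusted p = 9.5e-04, adjusted p = 0.0765), which was not called. It was called in CL when all 14 libraries entered 1 fit (adjusted p = 0.0472), with the mouse as a random effect (adjusted p = 0.0189) and with the trend on exonic length removed from each library (0.88, adjusted p = 0.0113).

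The call in IL was lost without Ctrl IL mouse 3551, cKO IL mouse 784 or cKO IL mouse 791 (log2 fold change 1.28 to 1.33, adjusted p = 0.0555 to 0.0889) and without the filter on low values (1.36, adjusted p = 0.0605). With the mouse as a random effect it was 1.33 (adjusted p = 5.1e-04).

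Between the hemispheres of Ctrl mice Fcgr1 was not called. It was lower in IL in 3 of 4 Ctrl mice and its fold change was -0.01 ± 0.17 on the log2 scale (adjusted p = 0.982, 95% interval -0.40 to 0.37). In cKO it was higher in IL in both mice with both hemispheres, 1.23-fold in mouse 3592 and 1.45-fold in mouse 791, and the fit gave 0.55 ± 0.15 (adjusted p = 0.0328, called). That call was lost with the mouse as a block, a fit in which the hemisphere effect rests on those 2 mice (0.49, adjusted p = 0.0651), with the length trend removed (0.43, adjusted p = 0.0595) and on leaving out any 1 of 5 of the 6 libraries, all but cKO IL mouse 3592 (0.46 to 0.58, adjusted p = 0.0624 to 0.119). The test of the difference between the 2 hemisphere effects gave 0.53 ± 0.26 on the log2 scale (unadjusted p = 0.0636, adjusted p = 0.9997, 95% interval -0.03 to 1.09) and was not called. No gene of the 18476 tested for that interaction was called by limma (0%), and 490 had an unadjusted p under 0.05, while 5 genes, none of them a member, were called if the mouse entered as a random effect.

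The bases before the annotated start of Fcgr1 are shown because this gene carried the difference between genotypes and because its promoter is known for the element through which interferon gamma acts on it. They are the 140 bases from -150 to -11 of the start (RefSeq, GRCm38.p6, chr3:96293980-96294119, minus strand), with capitals marking a gamma-activated site (GAS, TTCNNNGAA, at -109 to -101) and the core of a PU.1 site on the opposite strand (GAGGAA, at -55 to -50).
Fcgr1: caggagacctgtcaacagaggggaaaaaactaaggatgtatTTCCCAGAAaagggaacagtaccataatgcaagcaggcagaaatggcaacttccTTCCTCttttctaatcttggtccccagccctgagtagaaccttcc
PU.1 is the lineage factor of macrophages and microglia, and GAS elements are bound by STAT dimers. Over all 32851 RefSeq promoter entries of 300 bases, searched on both strands, 8.30% held a GAS match and 28.3% a PU.1 core, so that the PU.1 letters in particular are common. None of the entries for the other 5 members held the GAS letters.

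Fcgr4 showed the widest difference between hemispheres. It encodes an activating receptor of mice for IgG2a and IgG2b complexes that depends on Fcer1g for signalling, and lies on chromosome 1 (chr1:171018920-171029761, plus strand). Its level was 38.1, 22.6, 11.7 and 29.8 CPM in Ctrl CL (mice 3541, 3545, 3546 and 3551) and 82.8, 72.0, 52.0 and 68.2 CPM in Ctrl IL. In cKO CL it was 11.01, 26.4 and 19.9 CPM (mice 788, 791 and 3592) and in cKO IL 72.1, 68.8 and 51.2 CPM (mice 784, 791 and 3592). Every IL library was above every CL library of either genotype, and the IL level was between 2.17 and 4.44 times the CL level of the same mouse in the 6 mice with both. The fold change between hemispheres was 1.57 ± 0.34 on the log2 scale in Ctrl (adjusted p = 0.0243, called) and 1.82 ± 0.29 in cKO (adjusted p = 0.00532, called). With the mouse as a block both calls held, at 1.57 (adjusted p = 0.00114) and 1.41 (adjusted p = 0.00161). Genes within 20% of its exonic length and with a mean log2 level above 3 had a median of 0.02 in Ctrl and 0.28 in cKO. Over the processing alternatives, the length trend among them, the cKO value ranged from 1.14 to 1.88 and the call was kept. In Ctrl the call was lost on leaving out 1 of 4 of the 8 libraries, Ctrl CL mouse 3545 or Ctrl IL mice 3541, 3545 or 3551 (1.41 to 1.61, adjusted p = 0.0660 to 0.0877), and in cKO it was lost on leaving out none of the 6. Without the filter on low values the Ctrl call was lost as well (1.57, adjusted p = 0.0973).

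Between genotypes Fcgr4 differed by -0.08 ± 0.24 on the log2 scale in IL (adjusted p = 0.965, 95% interval -0.62 to 0.47) and by -0.33 ± 0.40 in CL (adjusted p = 0.820, 95% interval -1.22 to 0.56). These intervals do not show that the levels were equal. The interaction was 0.22 ± 0.52 (adjusted p = 0.9997).

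The 140 bases before Fcgr4 (RefSeq, GRCm38.p6, chr1:171018776-171018915, plus strand, from -150 to -11 of the start) are shown beside those of Fcgr1, since Fcgr4 was called between hemispheres in both genotypes and not between genotypes. Capitals mark a match to the interferon-stimulated response element (ISRE, GAAANNGAAA, at -73 to -64) and a PU.1 core on the opposite strand (at -22 to -17).
Fcgr4: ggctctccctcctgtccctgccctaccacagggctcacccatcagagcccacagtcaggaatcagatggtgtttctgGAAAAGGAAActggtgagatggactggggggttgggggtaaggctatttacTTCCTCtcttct
The ISRE letters were in 3.44% of all entries, and among the members they were found in the Fcgr4 entry alone. A PU.1 core was also in both entries of Fcgr3 (at -6 to -1 and, from the other start, -15 to -10) and in 1 of 2 entries of Syk (at -9 to -4), while the entries of Fcgr2b and Fcer1g held none of the 3 motifs.

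Fcgr2b, the inhibitory receptor, was the other member that was higher in IL in both genotypes. It lies on chromosome 1 (chr1:170958617-170976547, minus strand). Its level in Ctrl CL was 254, 294, 237 and 233 CPM and in Ctrl IL 348, 383, 389 and 332 CPM (mice 3541, 3545, 3546 and 3551). In cKO CL it was 198, 208 and 179.8 CPM (mice 788, 791 and 3592) and in cKO IL 277, 316 and 241 CPM (mice 784, 791 and 3592). It was higher in IL in all 6 mice with both hemispheres, by 1.30- to 1.65-fold, and the hemispheres did not overlap within either genotype. The fold change was 0.60 ± 0.15 on the log2 scale in Ctrl (adjusted p = 0.0393, called) and 0.57 ± 0.14 in cKO (adjusted p = 0.0260, called). With the mouse as a block both calls held (0.60, adjusted p = 0.00300, and 0.58, adjusted p = 0.0260). Without the block they were lost on leaving out any 1 of 7 of the 8 Ctrl libraries, all but Ctrl CL mouse 3545 (0.53 to 0.68, adjusted p = 0.0502 to 0.152), and any 1 of cKO CL mice 788 and 3592 or cKO IL mice 784 and 791 (0.44 to 0.60, adjusted p = 0.0506 to 0.0850). Without the filter on low values both were lost (adjusted p = 0.179 in Ctrl and 0.0603 in cKO), as was the cKO call with all 14 libraries in 1 fit (0.54, adjusted p = 0.0764). The interaction was -0.07 ± 0.23 (adjusted p = 0.9997, 95% interval -0.57 to 0.43).

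Between genotypes the values of Fcgr2b in cKO lay below those in Ctrl within each hemisphere, with no overlap, but the difference did not pass the test. It was -0.37 ± 0.15 on the log2 scale in IL (unadjusted p = 0.0369, adjusted p = 0.491) and -0.34 ± 0.16 in CL (unadjusted p = 0.0568, adjusted p = 0.509). Fcgr2b shares 155 exonic bases with the antisense gene Gm38204, and the library kit does not mark strand, so that reads from those bases cannot be assigned to either.

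Fcgr3, an activating low-affinity receptor for IgG complexes, was the most abundant of the 4 receptors and was called in none of the comparisons. It lies beside Fcgr4 (chr1:171051174-171064935, minus strand). Its level was 1923, 2160.2, 1759.7 and 1617 CPM in Ctrl CL and 1703, 1787, 1469 and 1544 CPM in Ctrl IL (mice 3541, 3545, 3546 and 3551). In cKO CL it was 1336, 1449 and 1767 CPM (mice 788, 791 and 3592) and in cKO IL 1556, 1452 and 1398 CPM (mice 784, 791 and 3592). In each of the 4 comparisons the groups overlapped. The fold change was -0.11 ± 0.19 on the log2 scale for IL against CL in Ctrl (adjusted p = 0.822), 0.03 ± 0.15 in cKO (adjusted p = 0.917), -0.13 ± 0.17 for cKO against Ctrl in IL (adjusted p = 0.929) and -0.26 ± 0.20 in CL (adjusted p = 0.711). The 95% intervals reached from -0.71 to 0.37 over these comparisons, which allows differences of that size.

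Fcgr2b and Fcgr3 carry opposite signals inside the cell but have closely related extracellular parts, and the stretch where they are most alike is shown because it bears on how far their reads can be told apart. Their coding sequences agreed at 86.9% of 789 aligned bases, against 65.0% to 69.5% for the other pairs of the 4 receptors. The coding exon that is most alike in the 2 genes holds 255 bases, of which 5 differ. Its first 150 bases are shown from GRCm38, for Fcgr2b at chr1:170966551-170966700 and for Fcgr3 at chr1:171054044-171054193, both on the minus strand, with capitals at the 3 positions where the 2 genes differ.
Fcgr2b: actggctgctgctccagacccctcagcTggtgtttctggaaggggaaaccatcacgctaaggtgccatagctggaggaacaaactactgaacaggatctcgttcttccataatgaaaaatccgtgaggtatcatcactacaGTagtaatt
Fcgr3: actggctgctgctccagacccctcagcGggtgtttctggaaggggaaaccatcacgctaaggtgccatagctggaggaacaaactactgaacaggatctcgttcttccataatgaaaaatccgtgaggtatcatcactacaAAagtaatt
Of all stretches of 50 bases in the annotated transcripts, 9.58% of those of Fcgr3 were also in Fcgr2b, and 2.92% of those of Fcgr2b were also in Fcgr3. Counting any other gene, 6.95% of the stretches of Fcgr2b were shared. Fcgr1, Fcgr4, Fcer1g and Syk shared no such stretch with any other gene. How reads that fit both genes were counted is not given in the sources used here. The part of shared reads in the values of Fcgr2b and Fcgr3 was not tested.

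**Figure D2:**
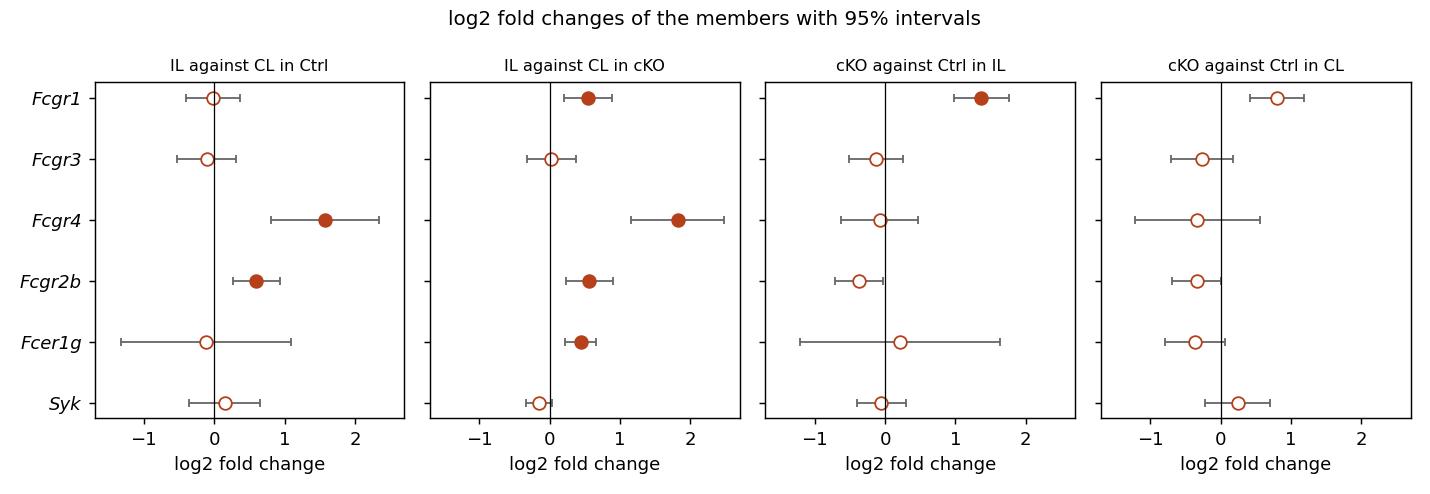
log2 fold change of each member (horizontal axes) in the 4 comparisons, with 95% intervals as bars and filled points for members called at the adjusted p and fold thresholds. Fcgr4 and Fcgr2b were called between hemispheres in both genotypes, and Fcgr1 was the member called between genotypes, in IL.

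Levels were compared between genes per kilobase of annotated exon. On that scale Fcgr3 had 1074 ± 134 CPM per kb in Ctrl CL (SD, n = 4) and Fcer1g 707 ± 116, followed by Fcgr1 with 99.1 ± 14.3, Fcgr2b with 43.9 ± 4.81, Fcgr4 with 20.3 ± 8.90 and Syk with 15.9 ± 5.58. The last 2 did not differ beyond their spread. In cKO IL the order was Fcgr3 (846 ± 46.2), Fcer1g (690.1 ± 9.33), Fcgr1 (236 ± 32.8), then Fcgr4 (51.0 ± 8.93) and Fcgr2b (48.0 ± 6.42), which did not differ beyond their spread, and Syk (15.1 ± 1.05; n = 3). Of the summed level of the 4 receptors per kb, Fcgr3 made up 85.0% to 88.7% in Ctrl CL, 81.3% to 82.6% in Ctrl IL, 78.2% to 83.1% in cKO CL and 69.7% to 74.2% in cKO IL. The share of Fcgr1 was 6.90% to 9.12% in the 8 Ctrl libraries and 13.1% to 21.2% in the 6 cKO libraries. These shares rest on annotated lengths and not on measured transcript ends.

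The balance of activating to inhibitory receptor was followed as a ratio within each library, which needs no scaling between libraries. The ratio does not remove the length trend: Fcgr2b has 5790 exonic bases, and Fcgr1, Fcgr3 and Fcgr4 have 2589, 1736 and 1256. Mouse 3546, low in short genes, had the lowest Ctrl ratio for Fcgr1 and Fcgr4 in both hemispheres and for Fcgr3 in IL alone. The part of the length trend and of reads shared by Fcgr2b and Fcgr3 was not tested. Fcgr1 per kb was 2.42, 2.20, 1.93 and 2.48 times Fcgr2b in Ctrl CL and 1.66, 1.41, 1.27 and 1.56 times in Ctrl IL (mice 3541, 3545, 3546 and 3551). It was 4.88, 4.87 and 5.17 times in cKO CL (mice 788, 791 and 3592) and 5.34, 4.66 and 4.75 times in cKO IL (mice 784, 791 and 3592). The ratio was lower in IL in each of the 4 Ctrl mice and in both cKO mice with both hemispheres, the cKO groups overlapped through mouse 784, and all cKO libraries were above all Ctrl libraries. For the 3 activating receptors summed against Fcgr2b, the ratio was 27.2 ± 0.872 in Ctrl CL and 17.3 ± 1.995 in Ctrl IL (SD, n = 4), and 31.6 ± 5.98 in cKO CL and 23.8 ± 2.40 in cKO IL (SD, n = 3). It is made up mostly of Fcgr3, and was lower in IL in both genotypes without overlap. These ratios are descriptions and were not tested.

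**Figure D3:**
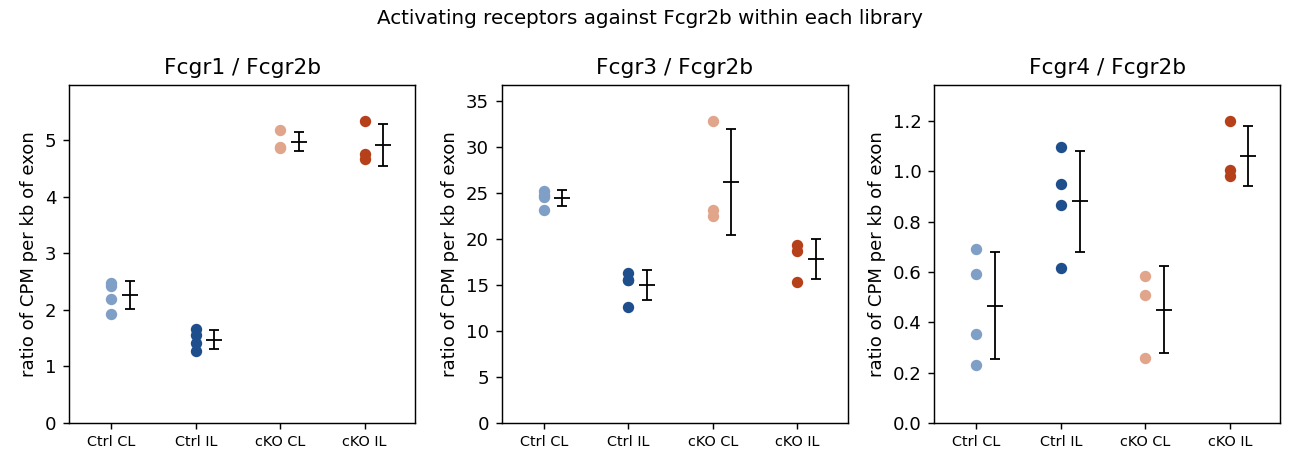
Ratio of each activating receptor to Fcgr2b, both per kb of exon (vertical axes, from 0), 1 point per library with the mean ± SD beside the points. Fcgr1 against Fcgr2b lay between 1.27 and 2.48 in the Ctrl libraries and between 4.66 and 5.34 in the cKO libraries.

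Fcer1g, the ITAM chain that the activating receptors need for surface expression and signalling, is the shortest of the 6 genes (874 exonic bases, chr1:171229572-171234365, minus strand). Its level was 699, 674, 474 and 624 CPM in Ctrl CL and 867, 827, 147 and 739 CPM in Ctrl IL (mice 3541, 3545, 3546 and 3551). In cKO CL it was 428, 487 and 479 CPM (mice 788, 791 and 3592) and in cKO IL 605, 594 and 610.1 CPM (mice 784, 791 and 3592). The library of Ctrl IL mouse 3546 was far below the other 3 of its group. Tyrobp, an ITAM adaptor of similar length, was at 162 CPM in that library and at 801 to 973 CPM in the other 3, and the library was also low in short genes as a class (above). In Ctrl the fold change between hemispheres was -0.12 ± 0.54 on the log2 scale (adjusted p = 0.943), and without that library it was 0.53 (adjusted p = 0.135). The IL level was 1.18 to 1.24 times the CL level in the other 3 Ctrl mice.

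In cKO the IL libraries of Fcer1g were all above the CL libraries, by 0.44 ± 0.10 on the log2 scale (adjusted p = 0.0151, called). The 251 genes within 20% of its length and with a mean log2 level above 3 had a median of 0.38 in that comparison, and with the length trend removed the difference was 0.12 (adjusted p = 0.398). The call was also lost with the mouse as a block (0.39, adjusted p = 0.0962) and without cKO CL mouse 788, cKO IL mouse 784 or cKO IL mouse 791 (0.41 to 0.44, adjusted p = 0.0598 to 0.0676). Between genotypes Fcer1g differed by 0.21 ± 0.62 in IL (adjusted p = 0.964), which became -0.45 (adjusted p = 0.145) without Ctrl IL mouse 3546, and by -0.36 ± 0.19 in CL (adjusted p = 0.571).

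Syk, the tyrosine kinase that docks on phosphorylated ITAMs, is the longest of the 6 genes (9362 exonic bases, chr13:52583173-52648792, plus strand). Its level was 113, 102, 216 and 162 CPM in Ctrl CL and 120, 124, 219 and 149.7 CPM in Ctrl IL (mice 3541, 3545, 3546 and 3551). In cKO CL it was 167, 155 and 170.4 CPM (mice 788, 791 and 3592) and in cKO IL 133, 139 and 152 CPM (mice 784, 791 and 3592). In cKO the hemispheres did not overlap, with IL lower, but the difference of -0.15 ± 0.08 on the log2 scale was not called (adjusted p = 0.227). The 3 other fold changes were 0.15 ± 0.23 for IL against CL in Ctrl (adjusted p = 0.785), -0.05 ± 0.15 for cKO against Ctrl in IL (adjusted p = 0.962) and 0.24 ± 0.21 in CL (adjusted p = 0.745). The highest values of Syk were those of mouse 3546 in both hemispheres, the mouse whose libraries were lowest in short genes and highest in long ones. The median log2 deviation of the 3951 genes over 5 kb was 0.23 and 0.21 in those 2 libraries and between -0.23 and 0.12 in the other 12.

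**Figure D4:**
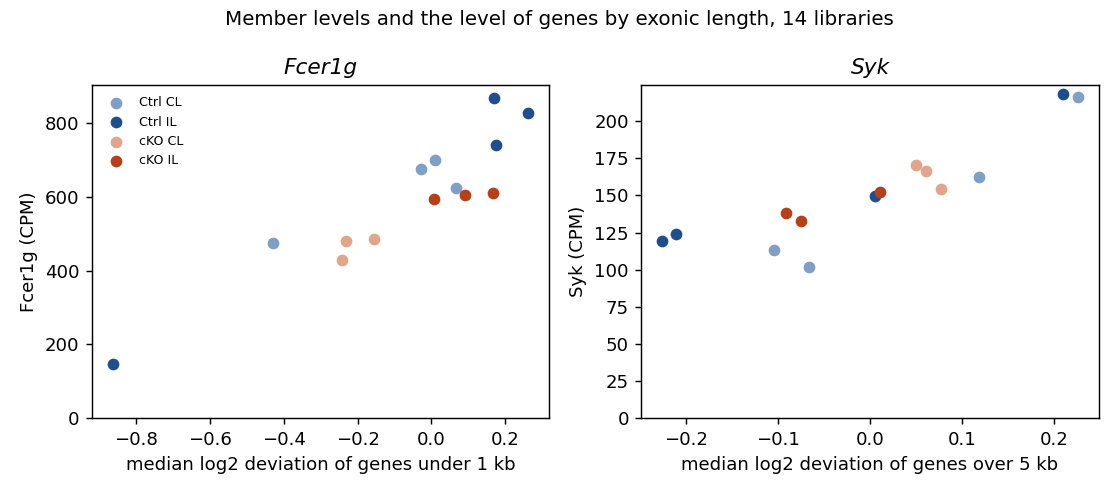
Level of Fcer1g (left, CPM) against the median log2 deviation of genes under 1 kb, and of Syk (right, CPM) against that of genes over 5 kb, 1 point per library, coloured by group. The Ctrl IL library with the lowest Fcer1g (147 CPM) was the one lowest in short genes (-0.86), and the 2 libraries with the highest Syk were the 2 highest in long genes.

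The other genes of the pathway were followed in 5 lists, which together held 62 to 66 tested genes in the 4 comparisons. Of them 8 rose and 2 fell in IL against CL in Ctrl, 12 rose and 6 fell in cKO, none rose and 2 fell in cKO against Ctrl in IL, and none rose and 2 fell in CL. Between hemispheres these 10 of 62 and 18 of 65 genes stand beside backgrounds of 7.52% and 23.1% of all genes called, and between genotypes 2 of 64 and 2 of 66 stand beside 0.668% and 0.903%. When the mouse was a block, 10 rose and 11 fell in Ctrl (background 20.5%) and 11 rose and 3 fell in cKO (background 14.7%). All 10 genes called in Ctrl without the block were called with it, and 13 of the 18 in cKO. The receptors and adaptors that also signal through Syk or Fcer1g were the list with the highest median between hemispheres (0.82 in Ctrl and 1.05 in cKO), with 3 of 9 tested genes higher in Ctrl and 4 of 9 in cKO, none lower. The called genes of this list were C-type lectins for the most part. Clec4n, the receptor dectin-2, rose by 2.63 ± 0.30 on the log2 scale in Ctrl (mean 17.1 to 106 CPM, adjusted p = 0.00119) and by 2.32 ± 0.41 in cKO (mean 17.3 to 78.1 CPM, adjusted p = 0.00737). Clec4d, which pairs with Fcer1g, rose by 2.75 ± 0.53 in Ctrl (adjusted p = 0.0148) and 2.75 ± 0.36 in cKO (adjusted p = 0.00313). Clec7a, the receptor dectin-1, rose in Ctrl (0.82 ± 0.14, adjusted p = 0.00811), and Clec4e (2.55 ± 0.42, adjusted p = 0.00602) and Trem1 (1.51 ± 0.42, adjusted p = 0.0361) rose in cKO. Under the block Clec7a was also called in cKO (0.66, adjusted p = 0.0425) and Clec4e in Ctrl (1.56, adjusted p = 0.00317), while Trem1 was not called in Ctrl (0.82, adjusted p = 0.0516). The blocked counts were 4 higher and 1 lower in Ctrl, the last being Trem2, a lipid-sensing receptor of microglia (-0.60, adjusted p = 0.0149), and 5 higher and none lower in cKO. None of the genes in this list was called in the interaction without the block.

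Upstream and downstream of Syk the calls went both ways. Of 10 Src-family kinases and regulators, the kinase Fyn rose in both genotypes (0.76 ± 0.13 in Ctrl, adjusted p = 0.00889, and 0.54 ± 0.11 in cKO, adjusted p = 0.0112), and Pag1, an adaptor that recruits the kinase Csk, fell in both (-0.95 ± 0.22, adjusted p = 0.0333, and -0.93 ± 0.14, adjusted p = 0.00401). In cKO the kinase Fgr also rose (1.18 ± 0.19, adjusted p = 0.00599) and Yes1 fell (-0.43 ± 0.12, adjusted p = 0.0345). In the blocked fit 7 of the 10 were called in Ctrl, 2 higher and 5 lower, and 3 in cKO, 2 higher and 1 lower. In that fit 20.5% of all genes were called in Ctrl and 14.7% in cKO. The further calls in Ctrl were Fgr (0.79, adjusted p = 0.0104), Yes1 (-0.47, adjusted p = 0.0479), Lck (-0.65, adjusted p = 0.0172), Csk (-0.31, adjusted p = 0.0416) and Lyn (-0.30, adjusted p = 0.0461), and Yes1 was not called in cKO (-0.38, adjusted p = 0.211). Among the genes downstream of Syk, 1 of 24 was called in Ctrl, where 7.52% of all genes were, and 6 of 25 in cKO, 3 in each direction, where 23.1% of all genes were. In the blocked fit these were 2 genes in Ctrl, 1 higher and 1 lower, and 3 in cKO, 1 higher and 2 lower, and Sh3bp2 was no longer called in cKO (0.34, adjusted p = 0.124). Vav3, a guanine nucleotide exchange factor, rose in both (1.40 ± 0.25, adjusted p = 0.0102, and 1.51 ± 0.34, adjusted p = 0.0180). Pik3r1, a regulatory subunit of PI3 kinase, fell in cKO (-0.74 ± 0.17, adjusted p = 0.0198), as did Plcg1 (-0.48 ± 0.10, adjusted p = 0.0135), while Sh3bp2, an adaptor that binds Syk, rose (0.53 ± 0.15, adjusted p = 0.0413). Of 14 inhibitors of the pathway 3 were called in each genotype, beside 7.52% of all genes in Ctrl and 23.1% in cKO. The inhibitory receptor Pirb rose (1.03 ± 0.26, adjusted p = 0.0405 in Ctrl, and 1.03 ± 0.19, adjusted p = 0.00898 in cKO), as did the adaptor Dok2 (0.72 ± 0.17, adjusted p = 0.0296, and 0.92 ± 0.28, adjusted p = 0.0474), and the phosphatase Ubash3b, which acts on Syk, fell (-0.43 ± 0.11, adjusted p = 0.0447, and -0.50 ± 0.13, adjusted p = 0.0256). The call of Ubash3b in cKO was lost with the mouse as a block (-0.38, adjusted p = 0.0738), where the inhibitors had 2 higher and 2 lower in Ctrl and 2 higher and none lower in cKO. None of the genes in these 3 lists, nor of the lectins and adaptors above, was called by limma between the genotypes in either hemisphere, where each of the 4 lists held 1 to 4 genes with an unadjusted p under 0.05.

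The 2 genes of the lists that were called between genotypes were receptors of the Fc receptor-like family, Fcrls and Fcrl1. Fcrls, a microglial gene, was at 3091 to 3631 CPM in Ctrl IL and 358 to 488 CPM in cKO IL (-2.98 ± 0.13 on the log2 scale, adjusted p = 1.96e-05), and Fcrl1 was at a mean of 27.5 and 4.12 CPM (-2.46 ± 0.18, adjusted p = 5.2e-04), with differences of the same sign in CL. Both lie on chromosome 3, as Fcgr1 does, at 9.02 and 8.88 megabases from it. In the list of other Fc receptors, Fcrlb, which neighbours Fcgr2b, rose between hemispheres in both genotypes (1.42 ± 0.17, adjusted p = 0.00133, and 1.27 ± 0.27, adjusted p = 0.0139) from means of 0.572 and 0.814 CPM to means of 3.07 and 3.10 CPM. Under the block Fcgrt, the neonatal Fc receptor (-0.49, adjusted p = 0.00974), and Fcrl1 (-0.38, adjusted p = 0.0333) were called lower in IL in Ctrl. In cKO the blocked value of Fcrl1 had the other sign and was not called (0.77, adjusted p = 0.0888). Its interaction in limma without the block was 1.21 ± 0.33 (unadjusted p = 0.0022, adjusted p = 0.9997), not called.

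Fcgr2b, Fcgr4, Fcgr3 and Fcer1g sit together on chromosome 1, and their neighbours were described as far as 1 megabase on either side. In IL against CL, 7 of 52 tested neighbours were called in Ctrl (7.52% of all genes) and 11 of 55 in cKO (23.1% of all genes), in both directions, and the medians were -0.02 and 0.17. Between genotypes 4 of 55 neighbours were called in IL (0.668% of all genes) and 3 of 52 in CL (0.903% of all genes), all lower in cKO. They were Usf1, a transcription factor gene (44.4 ± 7.99 CPM in Ctrl IL and 15.3 ± 2.37 in cKO IL, log2 fold change -1.46, adjusted p = 0.00244), F11r, which encodes a junctional adhesion molecule (386 ± 36.3 and 181 ± 17.7 CPM, -1.07, adjusted p = 0.00383), Slamf1 (4.69 and 1.47 CPM, -1.19, adjusted p = 0.0492) and, in IL, Pex19 (69.0 and 41.1 CPM, -0.72, adjusted p = 0.0407). Usf1, F11r and Slamf1 begin 435, 461 and 791 kb from the nearer end of Fcgr2b and were also called in CL. None of the 4 members at this site was called between the genotypes.

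Around Fcgr1, 3 of 69 tested neighbours were called between genotypes in IL and 2 of 64 in CL, beside 0.668% and 0.903% of all genes. The nearest was Gm42743, annotated as a lincRNA on the opposite strand, which ends 3908 bases beyond the 3′ end of Fcgr1 and shares no annotated base with it, although without strand its reads cannot be told apart from Fcgr1 reads that run past the annotated end. It was at 0.0310 to 0.203 CPM in the 8 Ctrl libraries and at 2.24 to 4.09 CPM in the 6 cKO libraries, with no overlap, and was higher in cKO by 1.73 ± 0.13 on the log2(CPM + 1) scale in IL (adjusted p = 7.5e-04) and 1.93 ± 0.19 in CL (adjusted p = 8.9e-04). No Ctrl value reached the filter on low values, so Gm42743 was tested only through the cKO libraries where it was high. Its test was therefore not independent of the filter, and it is included in the counts above. Gm20632, annotated as an antisense gene at 41.1 kb from Fcgr1, was higher in cKO in CL (0.94 ± 0.16, adjusted p = 0.0279). In IL it was not called, at 8.11 to 10.4 CPM in Ctrl and 16.5 to 17.1 CPM in cKO, again without overlap. In IL, Txnip (-0.92 ± 0.14, adjusted p = 0.0284) and Hist2h2be (-1.13 ± 0.17, adjusted p = 0.0323) were lower in cKO. Around Syk no neighbour was called between genotypes, of 8 tested in IL and 7 in CL.

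**Figure D5:**
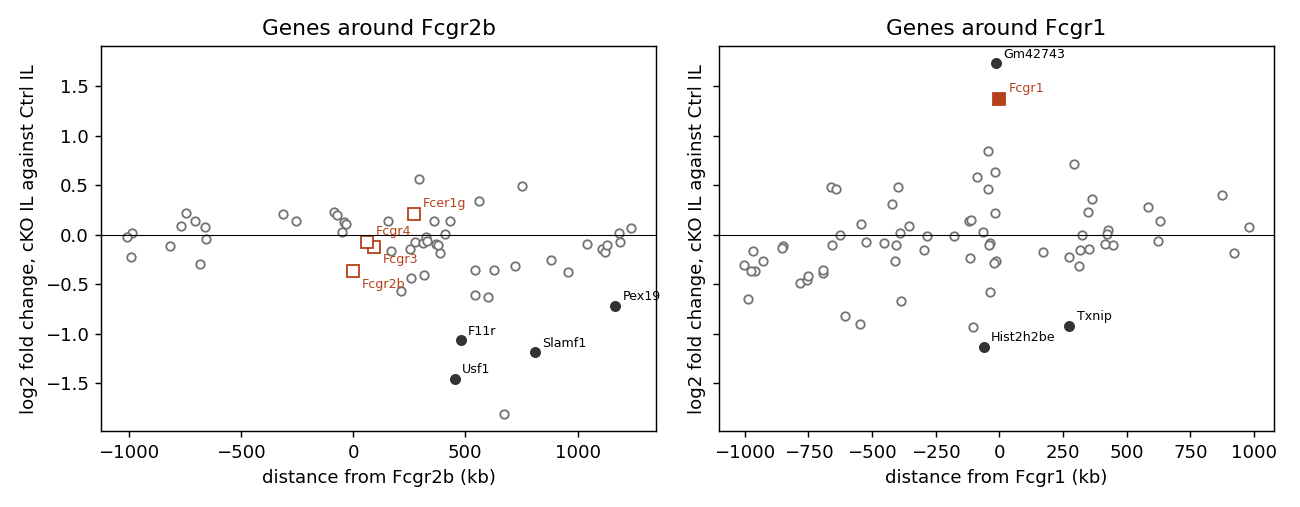
log2 fold change of cKO IL against Ctrl IL (vertical axis) for every tested gene within 1 megabase of the chromosome 1 receptors (left) and of Fcgr1 (right), by distance of the annotated starts in kb. Squares are members, filled symbols were called, and Gm42743 and Fcgr1 lay side by side at 1.73 and 1.37, whereas the 4 called neighbours on the left were below 0.

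For each member the 3 genes with the most similar pattern were sought among 9755 genes, by Pearson correlation of log2 levels over the 14 libraries, which share depth, hemisphere and genotype differences. They are a description and carry no test. Closest to Fcgr1 were Apold1 (r = 0.97), Gm3608 (r = 0.96) and Tpm3-rs7 (r = 0.95). For Fcgr2b they were Tiparp, Cndp2 and Igsf8 (r = 0.94 each), for Fcgr3 Slc25a11 (r = 0.95), Rpf1 (r = 0.92) and Fgfr1op2 (r = 0.92), and for Fcgr4 Tpd52 (r = 0.98), Pdlim7 (r = 0.97) and Ifi30 (r = 0.95). For Fcer1g they were Ndufb11, a gene of 908 exonic bases, Atp5h and Rps9 (r = 0.99 each), and for Syk Syvn1, Mtmr3 (r = 0.95 each) and Lrrk1 (r = 0.94), the last of 10307 exonic bases. Among the members themselves Fcgr2b and Fcgr4 were the most alike (r = 0.79), Fcgr1 correlated with the other 5 at between -0.20 and 0.20, and Fcer1g and Syk ran against each other (r = -0.75).

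Markers of other cells that carry these receptors moved between hemispheres as well. Of all genes tested in IL against CL, 7.52% were called in Ctrl and 23.1% in cKO, and 20.5% and 14.7% with the mouse as a block. The CD11b+ libraries held 8 of 8 homeostatic microglia markers, with summed levels of 25202 to 35143 CPM in CL and 14566 to 17244 CPM in IL. Of 8 markers of infiltrating monocytes, cells that also carry Fc gamma receptors, 4 were called higher in IL in each genotype (5 in Ctrl and 6 in cKO under the block). Without the block, 4.18% of all genes were called higher in Ctrl and 12.3% in cKO. In Ctrl the means of Ly6c2 (30.4 CPM in CL and 11.6 CPM in IL) and Chil3 (236 and 104 CPM) went down without a call. In cKO Ly6c2 was at 10.2 and 18.2 CPM and Chil3 at 73.7 and 62.2 CPM. The 8 together summed in Ctrl to 114 to 749 CPM (CL) and 219 to 460 CPM (IL), and in cKO to 144 to 270 CPM (CL) and 260 to 352 CPM (IL). No marker of that list was at 0 in any of the 14 libraries, and none was called between genotypes. Of 8 neutrophil markers none was called in Ctrl, where they summed to 467 to 6106 CPM in CL and 145 to 844 CPM in IL, and 5 were called lower in IL in cKO, where they summed to 459 to 1307 CPM in CL and 190 to 294 CPM in IL. In the blocked fit 7 were called lower in Ctrl and 6 in cKO. NK cells also carry Fcgr3 and Fcer1g, and of the T and NK cell markers 3 of 5 tested were called lower in IL in Ctrl and none of 6 in cKO, and 5 of 5 and none of 6 under the block. They summed to 11.6 to 24.2 CPM in CL and 5.50 to 6.55 CPM in IL in Ctrl, and to 6.35 to 12.96 CPM in CL and 4.40 to 15.8 CPM in IL in cKO. Of the B cell markers, Ms4a1 and Cd79a were under 1 CPM in all 14 libraries, while Ighm was at 294 to 789 CPM. Between genotypes in IL, 1 of the 8 homeostatic microglia markers was called, Olfml3, which was lower in cKO (a mean of 989 CPM against 2189 CPM in Ctrl). None of the markers of neutrophils, monocytes, B cells or border-associated macrophages was called between genotypes. Between hemispheres 1 of 6 border-associated macrophage markers was called, lower in IL in Ctrl, and 0 in cKO. Under the block 3 of them were called lower in Ctrl, and 2 higher and 1 lower in cKO. Genes of the dissociation response, a sign of sample handling, were called lower in IL for 1 of 6 in Ctrl and 4 of 6 in cKO, and for 4 and 3 with the mouse as a block. Their sum was 17525 to 24969 CPM and 20436 to 26441 CPM in the CL libraries of Ctrl and cKO, and 10975 to 13093 CPM and 11820 to 13765 CPM in the IL libraries. The part of any of these in the values of the members was not tested.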

How the data were processed

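Reads from SMART-Seq v4 libraries of CD11b+ cells were mapped by the authors with STAR to mm10, and the deposited table, though described as raw counts, holds CPM: each of the 14 columns sums to 1000000. The counting step is not given in the sources used here. The most frequent CPM value above 0 in a library was taken as 1 read. Of values under 100 reads, 79.0% to 83.5% were then whole within 0.03, too few to run a count test. The authors' tables of fold changes and FDR (Partek Flow 8.0) were not used. Identifiers were paired with symbols for 33802 of 33939 genes, and positions are from GENCODE vM21.

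Log2(CPM + 1) was tested with limma 3.58.1 (trend, R 4.3.3) on the libraries of each comparison after TMM scaling (trims of 30% and 5%). A gene was tested if it reached the CPM worth 10 reads at the median depth in n or more libraries, n being the size of the smaller group. The tests were also run on simulated counts. These had the same dispersion for every gene and no mouse effect or length trend, so they do not show performance on these data. Levels in the text are deposited CPM. The members and gene lists were chosen with earlier results of these data known. Named genes were the called pathway genes with the largest fold changes (at most 4 a list in each comparison) and the called neighbours between genotypes. Hemispheres share a mouse: deviations from the group means correlated at 0.24 to 0.68 (median 0.52) in the 6 same-mouse pairs. In the 19 pairs of different mice of a genotype they correlated at -0.64 to 0.59 (median -0.27), a range that overlaps the first. Alternatives changed the scaling, pseudocount, filter, samples, mouse block and, added after seeing the data, the length trend. The targeted gene and its level are not reported here.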

Additional observations from a re-analysis of the deposited data

Results flagged for a closer look

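Fcer1g in Ctrl IL was flagged because 1 of its 4 libraries, that of mouse 3546 at 147 CPM, stood apart from the other 3 (739, 827 and 867 CPM). On the log2 scale the gap to its nearest neighbour was 0.910 of the range of the group, above Dixon's 95% critical value for 4 libraries, and on the CPM scale it was 0.822, below that value. Such a flag is expected by chance in about 1 of 20 groups, and 12 groups of 4 were looked at. The same library was the shallowest and the lowest in genes under 1 kb. The cKO groups hold 3 libraries each and were not tested in this way.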

How the results depend on the processing

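Of 468 alternative values for the members' fold changes, 399 kept their direction and their side of the threshold, 40 lost the call, 3 gained it and 26 changed sign. The number of members called moved from 2 to 0 (IL against CL in Ctrl), from 4 to 2 (in cKO) and from 1 to 0 (cKO against Ctrl in IL) without the filter on low values, with 545, 2507 and 66 genes called in all and 78 in CL. With all 14 libraries in 1 fit, 2055 genes were called between hemispheres in Ctrl, 1567 genes and 1 member in cKO, and 277 genes and 1 member between genotypes in CL. With the mouse as a block, 3349 genes were called in Ctrl and 2455 genes and 2 members in cKO. With the block and the length trend removed these were 3474 genes in Ctrl, and 1309 genes and 2 members in cKO. The length trend alone left 2 members called in cKO and gave 1 between genotypes in CL. The mouse as a random effect gave 188 genes between genotypes in IL, 296 genes and 1 member in CL, and 5 genes for the interaction. The block changed no call of a member other than those of Fcgr1 and Fcer1g named above. The causes were not tested.

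Leaving out 1 library gave 571 to 1660 genes in Ctrl (0 to 1 members), 1949 to 3629 in cKO (1 to 4), 44 to 294 between genotypes in IL (0 to 1), 67 to 161 in CL (0 to 0) and 0 to 1 for the interaction (0 to 0). Signs changed for values near 0. Fcgr1 between hemispheres in Ctrl was 0.015 with median-ratio scaling. Fcgr3 in cKO was -0.039 without further scaling, -0.00010 with all 14 libraries, -0.10 with the block, -0.12 with the length trend removed and -0.24 with both. Fcer1g between genotypes in IL was -0.026 with the length trend removed, and the interaction of Fcgr2b was 0.0021 without the filter. Leaving out 1 library, the fold change between hemispheres ranged from -0.14 to 0.062 for Fcgr1 and from -0.43 to 0.53 for Fcer1g in Ctrl and from -0.040 to 0.13 for Fcgr3 in cKO. Between genotypes in IL it ranged from -0.25 to 0.11 for Fcgr4, from -0.45 to 0.49 for Fcer1g and from -0.11 to 0.085 for Syk. The interaction ranged from -0.086 to 0.55 for Fcgr4, from -0.0035 to 0.20 for Fcgr3, from -0.13 to 0.82 for Fcer1g and from -0.20 to 0.072 for Fcgr2b. In the shallowest library, Ctrl IL mouse 3546, the member with the fewest reads was Fcgr4 with about 636.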
